A study of Mus musculus with 2 samples.

Results

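The genes described here are 9 named markers of the two-cell-like state of mouse embryonic stem (ES) cells: Usp17la, Calcoco2, Arg2, Ddit4l, Pramel6, Pramel7, Tmem92, Sp110 and Zfp352. They were taken by name from the array's platform annotation, with every probe set listed for 1 of them alone. Of the 9, 8 had such a probe set, 16 probe sets in all, out of 18194 genes named by single-gene probe sets. Tmem92, which encodes a predicted transmembrane protein, was not listed with a probe set in the annotation and was not analysed here. Expression had been measured on Affymetrix Mouse Genome 430 2.0 arrays from total RNA, with 1 array from ES cells labelled as the control of a Dnmt1 knockout (KO) and 1 from ES cells labelled Dnmt1 KO. The labels give no strain, clone, allele, passage or culture condition for either culture, and the sample titles alone mark the KO, since the source name of both describes a control. With 1 array a group there is no spread between replicates, no test and no p-value, so each value is a single measurement and differences are described by size.

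Two-cell-like cells are a rare, transient fraction of mouse ES cell cultures that transcribe genes otherwise active in the embryo just after its first division, when the zygotic genome is switched on. The transcription factor Dux drives this program, and the multicopy Zscan4 genes are its best-known markers. Dnmt1 copies DNA methylation onto the new strand after replication. Among the genes described, Usp17la belongs to a cytokine-inducible family of deubiquitinating enzymes, and Calcoco2 (also called Ndp52) is a receptor of selective autophagy. Arg2 is the mitochondrial arginase, and Ddit4l (also called Redd2) inhibits mTOR complex 1 signalling. Pramel6 and Pramel7 are leucine-rich repeat proteins of the PRAME family. In mouse ES cells Pramel7 is known to promote the degradation of Uhrf1, the factor that brings Dnmt1 to replicated DNA. Sp110 is an interferon-inducible nuclear body protein, and Zfp352 is a zinc finger gene transcribed in the early embryo.

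Dnmt1 was far lower on the array labelled KO. Its brightest probe set read 1949.1 in the control and 262.1 in the KO, and its other 2 probe sets were below the floor on the KO array only. The floor was each array's own median signal, 60.9 for the control and 74.2 for the KO, and a probe set below it could not be told from a low background. Of the 18194 genes, 10995 were above both floors. Their median log2 ratio of KO over control was 0.43 (1.34-fold), and unless called as deposited, every ratio below is relative to that shift.

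Both cultures carried ES cell markers, since all 10 markers of the list passed both floors. Relative to the shift, 2 of these passed 2-fold with the higher signal in the KO, as did 0.946% of all genes above both floors. They were the pluripotency factors Nanog (592.5 and 1965.5, 2.47-fold) and Esrrb (361.8 and 1098.1, 2.26-fold), so these markers were higher on the same array as the members described below. The next by size were Utf1 (log2 ratio -0.62) and Tfcp2l1 (0.47), and the median of the 10 was -0.03. Feeder cells would bring fibroblast markers, of which 5 of the 9 with a probe set stayed under both floors (Col3a1, Lum, Dcn, Postn and Pdgfrb). The other 4 passed both, with Col1a1 at 94.3 and 80.2, Mmp2 at 554.7 and 502.7, Col1a2 at 172.9 and 190.9 and Thy1 at 340.0 and 549.8, and none was 2-fold different. Relative to the shift the median log2 ratio of these 4 was -0.42. The summed signal of the 9 as deposited was 1273.5 in the control and 1467.6 in the KO. Of 6 primitive endoderm markers, 5 passed a floor and none was 2-fold different, with a summed signal of 501.6 and 654.7. Of 6 trophoblast markers, 4 passed a floor, and the summed signal as deposited was 978.3 and 1650.3. The keratin Krt7 was at least 2.26-fold higher (58.2 and 184.5, below the floor in the control). Krt8, which made most of the summed signal on both arrays, read 677.3 and 1218.4, a log2 ratio of 0.42. Among the trophoblast regulators, Eomes read 161.0 and 179.1 (log2 ratio -0.27) and Cdx2 read 70.7 and 54.1, whereas Elf5 and Gata3 were below both floors. Since few genes of any kind passed 2-fold, finding no ratio past it among the fibroblast and primitive endoderm markers carries little weight. The part of all these markers in the results below was not tested.

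Sequence is shown first for the members with a promoter window, because Dnmt1 acts on cytosines in CpG dinucleotides. RefSeq windows of the GRCm38.p6 build, running from 250 bases before to 50 bases after a transcript's start, were found for 6 of the 9 genes. Calcoco2, Arg2 and Tmem92 had none in the table used here. A window with the fewest CpGs and the one with the most are printed 5′ to 3′ on the transcribed strand, with each CG in capitals.
Usp17la, chr7:104856766-104857065, plus strand: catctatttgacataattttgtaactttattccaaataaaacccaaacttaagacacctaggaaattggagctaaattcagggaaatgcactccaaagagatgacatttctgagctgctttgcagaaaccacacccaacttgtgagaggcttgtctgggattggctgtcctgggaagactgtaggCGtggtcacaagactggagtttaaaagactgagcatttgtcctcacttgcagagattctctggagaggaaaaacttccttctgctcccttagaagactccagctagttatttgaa
Ddit4l, chr3:137623422-137623721, plus strand: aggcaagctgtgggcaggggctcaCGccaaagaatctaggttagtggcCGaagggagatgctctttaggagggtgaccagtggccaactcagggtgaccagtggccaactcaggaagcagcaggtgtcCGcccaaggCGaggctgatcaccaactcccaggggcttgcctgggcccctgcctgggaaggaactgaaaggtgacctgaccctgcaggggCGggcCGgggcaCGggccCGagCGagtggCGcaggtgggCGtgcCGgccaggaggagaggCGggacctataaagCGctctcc

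The Usp17la window held 1 CpG and the Ddit4l window 14. The motif searched was CG, which is the same on both strands and cannot overlap itself, and 94.6% of all 32851 windows held at least 1. Their median was 7. The Pramel7 window also held 1 CpG, that of Zfp352 2 and that of Pramel6 3. The windows of Sp110, which had 2 starts in the table, held 3 and 5. No more than 2 CpGs were found in 23.3% of all windows. Ddit4l was the 1 gene of the 6 whose window lay above the median of all windows. These counts describe the letters of the reference sequence, and methylation was not measured on the arrays.

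**Figure D1:**
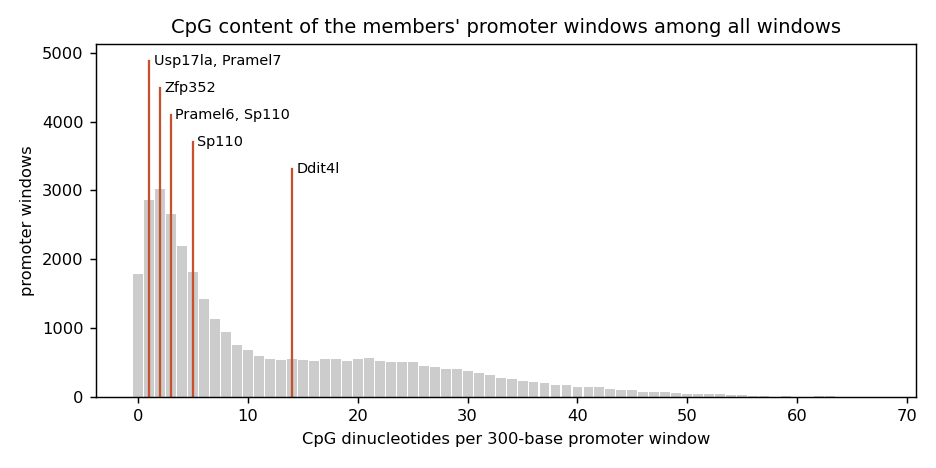
Number of promoter windows (y axis) by their count of CpG dinucleotides in 300 bases (x axis), over 32851 RefSeq windows in grey. Red lines mark the windows of 6 member genes, of which Ddit4l (14 CpGs) is the 1 to the right of the median of 7.

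Usp17la and Calcoco2 were the members with the largest differences between the arrays, and both were higher on the KO array. Usp17la read 96.7 in the control and 573.6 in the KO. The signal was 4.42-fold higher relative to the shift and 5.93-fold higher as deposited, a log2 ratio of 2.14 relative to the shift that ranked 8 of the 10995 genes above both floors. Calcoco2 read 183.5 and 732.1, 2.97-fold higher relative to the shift and 3.99-fold as deposited, and ranked 20. Each gene had a single probe set, so neither ratio could be compared between probe sets. In bulk RNA, more two-cell-like cells and more RNA per cell cannot be told apart. With the floor raised to the 75th percentile of each array, the Usp17la log2 ratio was 1.07, because the control signal was then at the floor, while that of Calcoco2 was 1.42.

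Counts were read against all genes measured the same way. Of 12226 genes above the floor on at least 1 array, 1.09% (133) were at least 2-fold higher relative to the shift, and 0.532% (65) were at least 2-fold lower. Usp17la and Calcoco2 made 2 of the 7 member genes above a floor, and no member was at least 2-fold lower. As deposited, 5 of the 7 were at least 2-fold higher, where 4.92% (602) of the measured genes were, and 12 genes (0.0982%) were at least 2-fold lower. The 3 members added without centring were Arg2, Ddit4l and Zfp352. Of the 4 members above both floors, 2 were at least 2-fold higher relative to the shift, against 0.946% of such genes, and 3 as deposited, against 4.58%. The members were chosen with earlier results of these arrays known, so these counts describe the list and are not independent evidence of its direction.

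**Figure D2:**
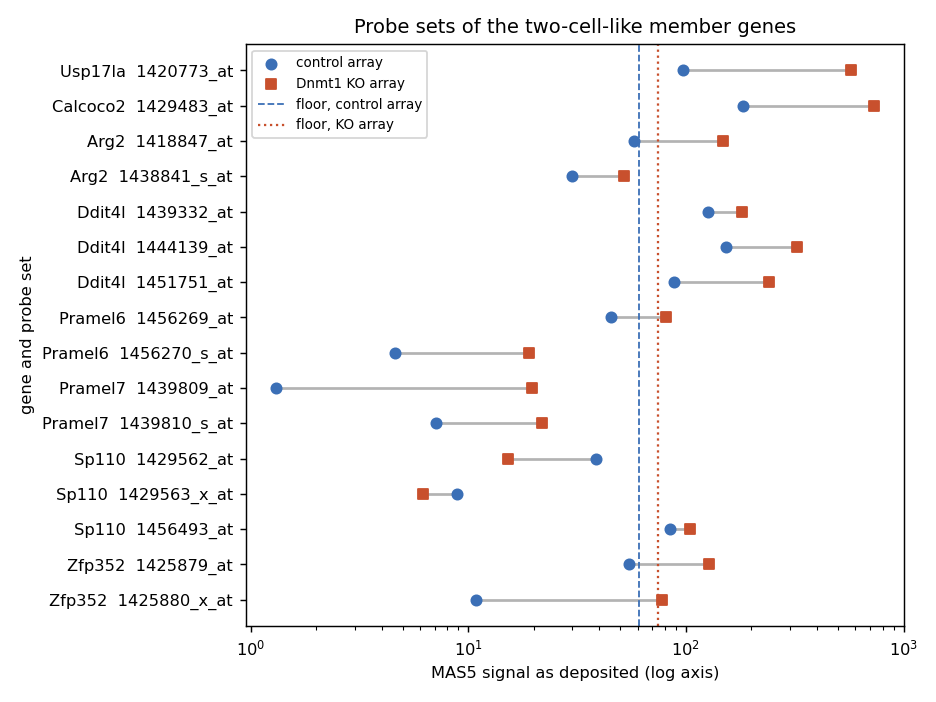
MAS5 signal as deposited (x axis, log scale) of the 16 probe sets of 8 member genes (y axis) on the control array (blue circles) and the KO array (red squares), with each array's floor as a vertical line. The Usp17la and Calcoco2 pairs lie above both floors and far apart, whereas 6 probe sets lie below both floors.

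Ddit4l was intermediate, and it was the 1 member with several probe sets above both floors. Its 3 probe sets read 152.2, 126.1 and 87.8 in the control and 323.1, 180.3 and 241.8 in the KO, in the same order. All 3 were higher on the KO array as deposited, by 2.12-fold, 1.43-fold and 2.75-fold. Relative to the shift their log2 ratios were 0.66, 0.09 and 1.04, with a mean of 0.60 ± 0.48 (SD between 3 probe sets). That spread was larger than the pooled SD between probe sets of a gene, 0.24 over 4704 genes, so the size of the Ddit4l difference depended on the probe set. It is a technical spread and holds nothing about cultures. Ddit4, the stress-induced paralog that also restrains mTOR complex 1, read 696.8 and 1326.5, a log2 ratio of 0.50.

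Arg2 and Zfp352 crossed the floor between the arrays, so their ratios are lower bounds. The brightest probe set of Arg2 read 58.0 on the control array, just under the floor, and 148.7 on the KO array, which is at least 1.82-fold higher relative to the shift and at least 2.44-fold as deposited. Its other probe set was below both floors (29.8 and 51.7). Zfp352 read 54.8 and 127.4, at least 1.56-fold higher relative to the shift and at least 2.09-fold as deposited. Its second probe set went from 10.9 to 77.3, only just past the KO floor. The log2 ratio of that probe set was -0.08 or above relative to the shift, which leaves its direction undetermined. Pramel6 also crossed, from 45.1 to 81.1, but its bound was only 1.33-fold as deposited and its log2 ratio relative to the shift was -0.01 or above, which leaves its direction undetermined. Crossing in this direction was seen in 10.5% of the 6670 genes that were below the floor on the control array, and a gene that is measured only because it is bright on the KO array could not have come out lower there. Arg1, the cytosolic arginase of liver, was below both floors (18.5 and 13.2).

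Pramel7 was below both floors and has no ratio. Its 2 probe sets read 1.3 and 7.1 in the control and 19.6 and 21.9 in the KO, and 32.8% of all genes were below both floors in the same way. The second probe set of Pramel6 was there too (4.6 and 19.0). Uhrf1, the target of Pramel7, read 2366.6 and 3372.3, a log2 ratio of 0.09. Pramel6 and Pramel7 belong to a family of 46 protein-coding Pramel genes in RefSeq, of which these 2 lie side by side on chromosome 2 and 11 had a single-gene probe set. Of the other Pramel genes listed for comparison, Pramel12 (287.8 and 320.2) and Pramel13 (199.1 and 333.3) had log2 ratios of -0.27 and 0.32.

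Sp110 lay near the middle of all genes. Its brightest probe set read 84.4 in the control and 104.8 in the KO, a log2 ratio of -0.11 after centring on the shift and 0.31 as deposited, so its direction changed with the scaling. Of the 10995 genes above both floors it ranked 7179 from the top. Its other 2 probe sets were below both floors and were the only 2 of the 16 with a lower signal on the KO array (38.8 and 15.2, and 8.9 and 6.2). The remaining 14 probe sets read higher on the KO array as deposited, as did 77.8% of all single-gene probe sets. Sp100, its neighbour in the same family of nuclear body proteins, was below both floors (1.7 and 7.0).

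**Figure D3:**
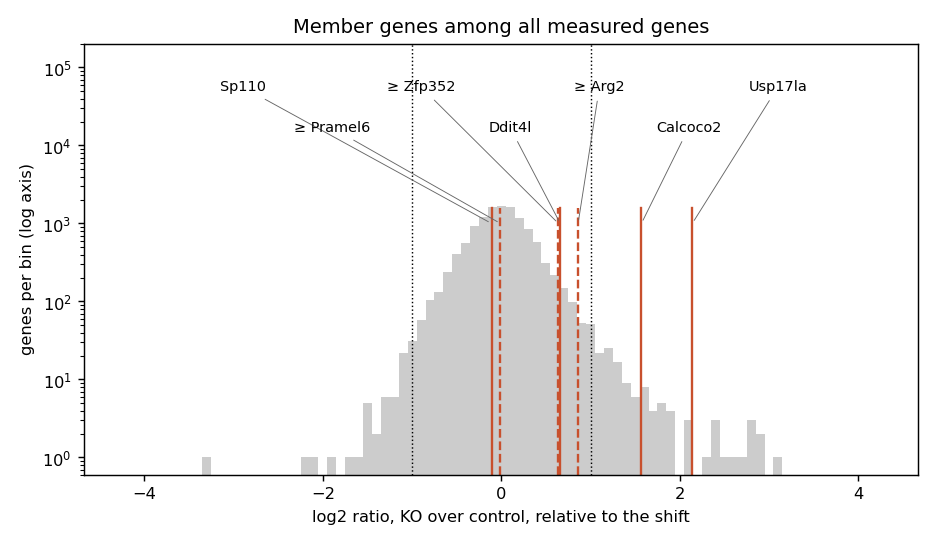
Number of genes per bin (y axis, log scale) by log2 ratio of KO over control relative to the shift (x axis) for 12226 measured genes in grey, with member genes as red lines and dotted lines at 2-fold. Dashed lines are lower bounds (Arg2, Zfp352, Pramel6), and only Usp17la (2.14) and Calcoco2 (1.57) lie beyond 2-fold.

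Over the 7 members that passed a floor the median log2 ratio was 0.66 after centring and 1.09 as deposited, beside 0.42 as deposited for all 12226 measured genes. The member median is Ddit4l's own value, and since 3 of the 7 ratios are bounds it is a lower bound as well. It is a description only, because these 3 passed the floor through the KO array alone. When the mean over probe sets replaced the brightest, the log2 ratio was 0.40 for Arg2 and 0.32 for Zfp352, because the dim probe sets then entered at the floor. The value for Arg2 is then no bound, since its second probe set was below both floors.

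Several probe sets belong to multigene families, and related copies could contribute to their signal. Usp17la lies on chromosome 7 in a group of 5 Usp17l genes, and it was the 1 of the 5 with a probe set of its own. Of the 16 member probe sets, 3 carry the Affymetrix suffix _s_at, given to probe sets whose probes all match several transcripts, namely 1 each of Arg2, Pramel6 and Pramel7. The suffix _x_at, given where some probes match unrelated transcripts, marks 1 probe set each of Sp110 and Zfp352. The other 11, including those of Usp17la and Calcoco2, carry neither. Zfp352 has a related pseudogene, Zfp353-ps, and Calcoco2, Arg2 and Ddit4l have paralogs with probe sets of their own. The Calcoco2 paralogs Calcoco1 (298.8 and 419.1) and Tax1bp1 (680.9 and 1035.8), which is likewise an autophagy receptor, had log2 ratios of 0.06 and 0.18. Of 8 paralogs of members on the array, 5 were measured and none was 2-fold different in either direction. With 1.09% of all measured genes past 2-fold upwards and 0.532% downwards, that carries little weight for 5 genes.

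The multicopy genes at the core of the two-cell-like state are represented on this array mainly by probe sets listed with several genes at once. No single gene can be credited with such a signal, but the family can be read. There were 7 such probe sets that listed at least 1 gene of the two-cell-like lists, and all 7 read higher on the KO array as deposited, as did 79.9% of all 932 multi-gene probe sets. The probe set listed for Zscan4a, Zscan4c, Zscan4d, Zscan4f and a pair of unnamed loci read 184.1 in the control and 925.9 in the KO. Zscan4 proteins are known for maintaining telomeres in mouse ES cells. This was 3.75-fold higher relative to the shift and 5.03-fold as deposited, and it ranked 37 of 24084 measured probe sets.

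The probe set with the largest difference of the 7 was listed for 7 predicted genes, among them Gm4340 and Gm6763, and read 199.7 and 1705.2. It was 6.36-fold higher relative to the shift, rank 14. The probe set shared by Eif1a, BB287469 and Gm4027 read 110.4 and 906.6, 6.12-fold higher and rank 17. Eif1a is a translation initiation factor that every cell uses, and its own brightest probe set read 1333.1 and 1838.8, a log2 ratio of 0.04 against 2.61 for the shared one. The probe set of Gm2022, Gm8300 and Gm5662 crossed the floor, from 29.5 to 179.5, and was at least 2.19-fold higher. All 4 of the 7 that were above a floor were thus at least 2-fold higher relative to the shift, where 3.42% of the 585 measured multi-gene probe sets were. Of the 4, 3 were above both floors, and no separate share was computed for such probe sets. The other, of Gm2022, Gm8300 and Gm5662, was measured only through the KO array, so it could not have come out lower there.

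The other 3 were below both floors and have no ratio. Of these, 2 were shared by Usp17lc and Usp17ld, and read 3.7 and 8.6 in the control and 23.2 and 45.5 in the KO. The third, shared by Duxf3 and 2 other genes, read 13.4 and 53.5. Duxf3 is the Dux gene itself, and its own probe set was below the floor too (24.1 and 45.0).

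**Figure D4:**
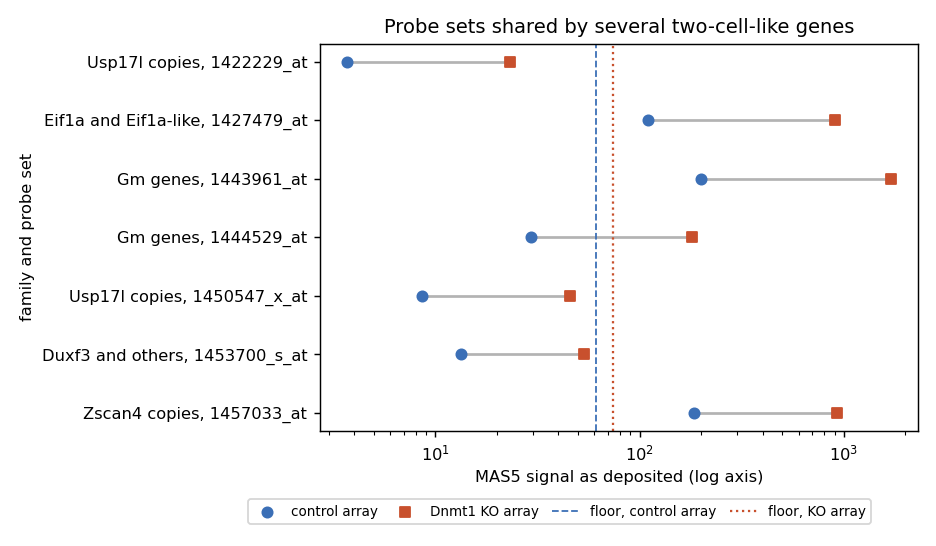
MAS5 signal as deposited (x axis, log scale) of the 7 probe sets listed with several genes, at least 1 of them two-cell-like (y axis), on the control array (blue circles) and the KO array (red squares), with each array's floor as a vertical line. The Zscan4 probe set and 2 others lie above both floors, 1 crosses them, and 3 lie below both.

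Other genes of the state gave no further ratio. Of 34 listed transcripts beside the members, 8 had a single-gene probe set, and all 8 were below both floors, with Tcstv1 at 11.8 and 23.6, Tcstv3 at 7.3 and 20.2 and Trim43a, the 1 of the 8 that was lower on the KO array, at 32.1 and 15.8. Regulators of the state were read next. Of 6 activators measured, none was 2-fold different relative to the shift. Dppa3, a maternal factor that keeps Uhrf1 from chromatin, had the largest ratio (471.2 and 1023.3, log2 0.69), whereas Dppa2 and Dppa4, which act upstream of Dux, had -0.20 each and Nelfa 0.17. Of 22 repressors measured, none was 2-fold different, and their ratios ran from -0.29 to 0.53 with a median of 0.02. Those with the largest ratios were Max (0.53) and L3mbtl2 (0.47), both of a noncanonical Polycomb complex, Zmym2 (0.35) and the histone methyltransferase Setdb1 (0.32). Of all measured genes only 1.09% passed 2-fold upwards and 0.532% downwards. Finding none among 6 activators and 22 repressors therefore carries little weight.

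The genes nearest to Calcoco2 and Usp17la were compared with them. The 3 nearest measured genes on each side of Calcoco2 on chromosome 11 had log2 ratios between -0.31 (Ttll6) and 0.58 (Snx11), and those around Usp17la on chromosome 7 lay between -0.14 (Cavin3, at the floor on the control array) and 0.45 (Trim12c). None of these 12 ratios reached 2-fold, but those of Cavin3 and Trim30a are lower bounds. Around Zfp352 on chromosome 4 the range was 0.09 to 1.02. Cdkn2b, an inhibitor of the cyclin-dependent kinases of G1 phase, was the 1 neighbour with a ratio past 2-fold, higher on the KO array (125.6 and 341.4). No measured neighbour of Arg2, Ddit4l, Pramel6 or Sp110 had a ratio past 2-fold in either direction, but those of neighbours below the KO floor are bounds. So few genes of the whole array passed 2-fold (1.09% upwards, 0.532% downwards) that its absence among a few neighbours carries little weight.

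The windows of the members were also compared with each other, a step added after the sequences were seen. Over 20 pairs of windows from different genes, read in both orientations, the longest identical stretch was AACACACCTTTAATC, 15 bases, shared by Sp110 and Zfp352. It occurred 3 times in the window of each gene, without overlap, and in 23 (0.07%) of all 32851 windows on either strand. Both windows are printed 5′ to 3′ on the transcribed strand, with that stretch in capitals, to let their units be compared.
Sp110, chr1:85603842-85604141, minus strand: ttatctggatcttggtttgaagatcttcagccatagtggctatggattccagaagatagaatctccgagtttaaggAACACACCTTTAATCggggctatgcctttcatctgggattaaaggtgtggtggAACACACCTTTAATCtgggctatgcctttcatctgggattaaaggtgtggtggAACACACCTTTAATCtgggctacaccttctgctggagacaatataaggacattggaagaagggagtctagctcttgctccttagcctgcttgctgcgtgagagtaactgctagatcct
Zfp352, chr4:90218570-90218869, plus strand: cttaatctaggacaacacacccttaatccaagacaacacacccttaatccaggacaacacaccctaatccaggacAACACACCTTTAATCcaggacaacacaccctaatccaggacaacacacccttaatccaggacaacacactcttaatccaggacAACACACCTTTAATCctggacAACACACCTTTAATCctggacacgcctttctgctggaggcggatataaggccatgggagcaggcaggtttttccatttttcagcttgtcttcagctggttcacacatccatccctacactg

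The stretch lies in tandem copies of a unit in both windows, and the unit is longer in the Sp110 window than in the Zfp352 window. How alike the copies are was not measured. Relative to the shift, the brightest probe set of Sp110 had a log2 ratio of -0.11 (84.4 and 104.8). The brightest of Zfp352 was at least 1.56-fold higher (54.8 and 127.4). However, Zfp352 was measured only through the KO array, so it could not have come out lower there. The log2 ratio of its second probe set was -0.08 or above, so these values give no contrast between the genes. A shared stretch is a description of the letters, and which of the Sp110 starts was used in these cells is not known from the array.

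**Figure D5:**
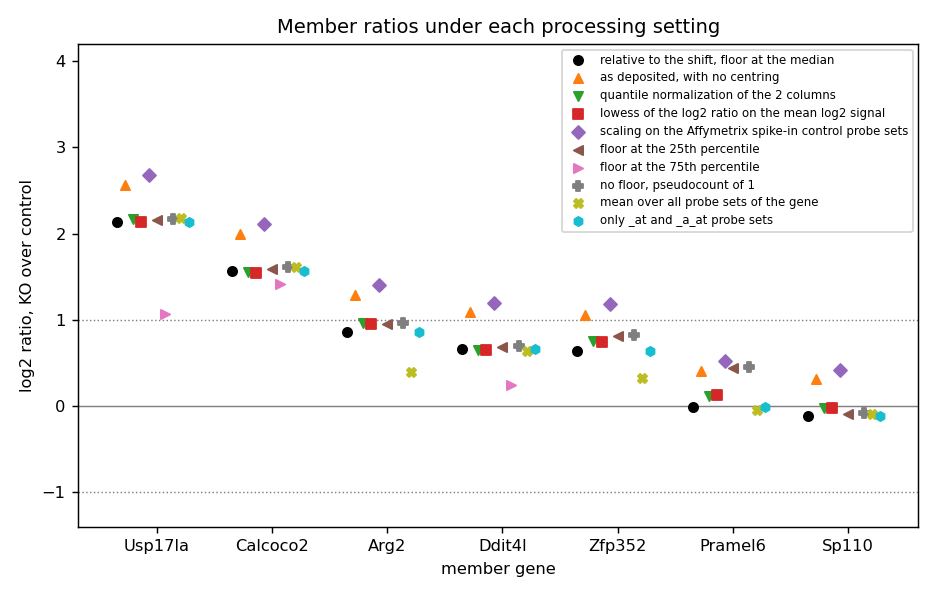
Log2 ratio of KO over control (y axis) of the 7 measured members (x axis) under 10 processing settings, 1 symbol each, with a line at 0 and dotted lines at 2-fold. Usp17la and Calcoco2 lie above 1 under all 10, Sp110 and Pramel6 lie on both sides of 0, and with the floor at the 75th percentile only Usp17la, Calcoco2 and Ddit4l have a value.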

How the data were processed

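Total RNA of 1 control and 1 Dnmt1 KO culture was hybridised to 1 array each. The deposited values are linear signal intensities made with MAS5, per the submitters' processing notes. For target intensity, scaling between the arrays and present or absent calls, nothing is stated in those sources. Array levels differed, with means of 184.0 (control) and 246.8 (KO) after 2% was trimmed from each end. Of 45101 probe sets, 64 are Affymetrix controls. Of the others, 34945 are listed with 1 gene, 932 with several and 9160 with none. Symbols were updated by gene identifier to RefSeq (GRCm38.p6), and promoter windows came from RefSeq.

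Signals under an array's median (percentile 50) were raised to it, the brightest probe set represented a gene, and log2 ratios were centred on the median of genes above both floors. The code for the ratio calls was tested on an array simulated from the control array. Changes were set only in genes well above the control floor, so genes near the floor and the spread between cultures were not covered. Each member is named with every probe set, and up to 4 genes per comparison list by size of ratio. Neighbouring genes, multi-gene probe sets, genes below both floors, Calcoco1 and Uhrf1 were named beyond this rule, after their values were seen. Members and lists were chosen with earlier results of these data known. Python 3.11.15 with pandas 2.3.3 was used. Precision is limited by the number of arrays.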

Additional observations from a re-analysis of the deposited data

How the results depend on the processing

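No paired analysis was possible because each group holds 1 array. Counts of calls moved with the scaling, the floor and the threshold. As deposited, 5 of 7 members passed 2-fold, with 602 of 12226 genes higher and 12 lower, and the member median was 1.09. Unless others are given, these totals hold below. Scaled on 18 spike-in probe sets (median log2 ratio -0.11), the numbers were 5, 924 and 6, and the median 1.20. Quantile normalization and lowess left 2 members. A floor at the 25th percentile gave 361 genes higher and 388 lower of 15813 measured, and 1 of 3 other two-cell-like genes higher. A floor at the 75th gave 48 and 12 of 7145, with a median of 1.07 over the 3 members left. Without a floor (pseudocount 1) the counts were 847 and 1049 of 18194. Of 8 other two-cell-like genes 1 was then higher, as were all 7 multi-gene probe sets. Some of these 7 rest on control signals far below the floor used above, the lowest at 3.7. The mean over probe sets gave 25 genes lower and a member median of 0.40. A threshold of 1.5-fold gave 5 members, 579 genes higher and 519 lower, and 3-fold gave 1, 32 and 6. No member was at least 2-fold lower under any of these settings, and none of the called ratios changed sign. Ratios ran from 1.07 to 2.68 for Usp17la and from 1.42 to 2.11 for Calcoco2. The multi-gene probe sets were examined under these settings after the data were seen, and 3 to 5 were at least 2-fold higher wherever a floor was used. The share over all multi-gene probe sets was not computed for these other settings.

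Without replicates, no difference can be set against a spread between cultures. Without detection calls, signals under the floor cannot be called absent.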
